A study of Homo sapiens with 8 samples.

Results

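*FAM210A*, *RBM24*, *BCAR3*, *SEMA7A* and *GPRC5A* are 5 of the 20030 genes with a value in HCT-116 cells, a human colorectal cancer cell line, and they were chosen by their changes from the control libraries, because knockdown of *HHEX*, of *YAP1* with *WWTR1*, and of *TEAD1* to *TEAD4* each lowered them. Those changes are therefore given as a description, with no test. All cells were HCT-116 and all were transfected with siRNA. The control group (siNC) had 2 libraries with a control siRNA, and siHHEX had 3 libraries, each with its own siRNA against *HHEX*. The siYAP/TAZ group had 2 libraries, each with its own pair of siRNAs against *YAP1* and *WWTR1*, the gene of TAZ. The siTEAD1/2/3/4 group had 1 library with an siRNA shared by *TEAD1*, *TEAD3* and *TEAD4* and another against *TEAD2*, so that its values have no replicate check. Nothing in the labels says that the libraries of a group came from separate cultures, and the p values here measure only the spread between these libraries, which in the knockdowns includes the difference between siRNAs. The unit is FPKM, in which the fragments of a gene are divided by the length of the gene and by the total of the library.

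YAP and TAZ are coactivators at the end of the Hippo pathway, and they reach DNA mainly through the TEAD transcription factors. *HHEX* encodes a homeodomain transcription factor, and the question behind these libraries was which genes need both HHEX and the YAP-TEAD complex. In colorectal cells the pathway is known for its part in regeneration and tumor growth, and its usual readouts are genes of matricellular and growth proteins.

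The siRNA targets had lower values in their own knockdowns, with exceptions. *HHEX* had 8.60 and 9.06 FPKM in the siNC libraries and 3.25, 3.54 and 1.85 FPKM in the siHHEX libraries. *YAP1* differed in siYAP/TAZ by -1.28 on the log2(FPKM + 1) scale without passing the adjustment (adjusted p = 0.0681 from limma), and *WWTR1* fell by 1.10 (adjusted p = 0.0156). In siTEAD1/2/3/4, *TEAD3* had 9.08 FPKM against a siNC mean of 7.18 FPKM and so was not lower. Targets of the other siRNAs were also called. In siHHEX, *TEAD1* fell by 1.25 (adjusted p = 0.00641 from limma) and *YAP1* by 1.07 (adjusted p = 0.0429), and *TEAD2* rose by 0.78 (adjusted p = 0.00709). *YAP1* had 20.2 and 19.7 FPKM in siNC and 5.77, 17.4 and 6.93 FPKM in siHHEX, where siHHEX 2 stayed near siNC. In siYAP/TAZ it had 6.90 and 8.39 FPKM. With a correction for the GC content and length of transcripts, described further on, the fall of *TEAD1* was 0.91 (adjusted p = 0.0186), and the calls of *YAP1* and *TEAD2* were lost (adjusted p = 0.161 and 0.0734). *TEAD4* fell by 0.63 in siYAP/TAZ (adjusted p = 0.025), and in siHHEX, where its change of -0.11 did not pass (adjusted p = 0.503), it was at -0.50 with the correction (adjusted p = 0.0312). None of the uncorrected calls of siRNA targets given here held without either one of the siNC libraries, those of *WWTR1* and *TEAD4* were lost without siYAP/TAZ 2 and that of *TEAD4* without siYAP/TAZ 1, and the call of *YAP1* was lost with any 1 library of the replicated groups left out other than siHHEX 2. Their directions did not change with a library left out.

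The libraries had the keratins of an epithelial line. Of 9 colorectal epithelial markers, 6 reached 1 FPKM in at least 2 libraries, with *KRT8* the highest at 897 to 1760 FPKM, while *CDX1* was listed at 0 in every library and *VIL1* and *LGALS4* stayed near 0. The summed level of the 9 markers was lowest in the siYAP/TAZ libraries, at 2030 and 1980 FPKM, against 3370 and 3520 FPKM in siNC, 3120, 3440 and 3660 FPKM in siHHEX and 2720 FPKM in siTEAD1/2/3/4. In siYAP/TAZ, the keratins *KRT8*, *KRT18* and *KRT19* had means of 54.4%, 42.9% and 77.5% of siNC. The means of *EPCAM*, *CDX2* and *CDH1* there were 90.7%, 107% and 131% of siNC. None of the 3 endothelial and none of the 6 muscle markers reached 1 FPKM in 2 libraries, and *MYOD1*, *MYOG* and *MYH7* were listed at 0 in all 8. Leukocyte markers summed to 0.25 and 0.191 FPKM in siNC, to 0.0841, 0.16 and 1.70 FPKM in siHHEX, to 0.846 and 1.39 FPKM in siYAP/TAZ and to 0.579 FPKM in siTEAD1/2/3/4, most of it from *LYZ* in the higher libraries. Fibroblast markers, of which *COL1A1* was the most abundant, summed to 0.994 and 0.828 FPKM in siNC, to 0.926, 0.726 and 1.99 FPKM in siHHEX, to 1.33 and 2.80 FPKM in siYAP/TAZ and to 1.69 FPKM in siTEAD1/2/3/4. Both sums were thus highest in siHHEX 3 and siYAP/TAZ 2, the libraries in which *GPRC5A* had its highest and its lowest knockdown value. The part of these other cell types in the results was not tested. As RNA was extracted from whole cultures, fewer cells with a transcript and less of it per cell cannot be told apart.

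*FAM210A*, on the minus strand of chromosome 18 of GRCh38 from 13663347 to 13726663, encodes a mitochondrial membrane protein linked to protein synthesis inside mitochondria. Its GENCODE canonical transcript has 4 exons and 4210 bases, of which 3133 are 3′ UTR, and it had the lowest GC content of the 5 transcripts, 40.6%. It had 13.3 and 11.6 FPKM in the siNC libraries, 3.71, 5.05 and 4.14 FPKM in siHHEX, 3.91 and 5.53 FPKM in siYAP/TAZ and 5.55 FPKM in siTEAD1/2/3/4. Both siNC values lay above all 6 knockdown values, and the lower of them was 2.09 times the highest knockdown value. The siNC mean was 12.4 ± 1.23 FPKM (SD, n = 2), the siHHEX mean 4.30 ± 0.684 FPKM (SD, n = 3) and the siYAP/TAZ mean 4.72 ± 1.14 FPKM (SD, n = 2). The knockdown means, in that order and with siTEAD1/2/3/4 last, were 34.5%, 37.9% and 44.6% of the siNC mean. The knockdown values overlapped each other, and siTEAD1/2/3/4 and siYAP/TAZ 2 were nearly the same.

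*RBM24*, on the plus strand of chromosome 6 from 17281361 to 17293871, encodes an RNA-binding protein known from heart and skeletal muscle, where it acts in splicing and mRNA stability. Its canonical transcript has 4 exons and 2684 bases with a GC content of 43.9%. It was the lowest of the 5 genes, and its siNC mean stood at the 30.6th percentile of the 10677 genes that were tested, those that reached 1 FPKM in 2 or more libraries. *RBM24* had 3.58 and 3.54 FPKM in siNC, 0.836, 0.917 and 0.890 FPKM in siHHEX, 0.956 and 1.10 FPKM in siYAP/TAZ and 0.950 FPKM in siTEAD1/2/3/4. Every knockdown library stood between 0.836 and 1.10 FPKM, the narrowest range of the 5 genes, and the lower siNC value was 3.21 times the highest of them. It passed the filter through 3 libraries only, both siNC libraries and siYAP/TAZ 2, so that its place among the tested genes rests on the group where it was high. The knockdown values correspond to about 64 to 77 fragments and the siNC values to 244 and 237, an estimate from the smallest steps between values, since no counts were used. Its siHHEX mean was 0.881 ± 0.0415 FPKM (SD, n = 3), its siYAP/TAZ mean 1.03 ± 0.103 FPKM (SD, n = 2) and its siNC mean 3.56 ± 0.0245 FPKM (SD, n = 2). In percent of siNC these were 24.8% and 28.9%, with 26.7% in siTEAD1/2/3/4.

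*BCAR3*, on the minus strand of chromosome 1 from 93561741 to 93847150, encodes an adaptor of the NSP family that binds p130Cas and acts in cell adhesion and motility, and it was first known for its part in antiestrogen resistance of breast cancer cells. Its canonical transcript has 12 exons and 3229 bases with a GC content of 53.7%. It had 12.3 and 13.0 FPKM in siNC, 3.66, 6.65 and 6.07 FPKM in siHHEX, 3.50 and 3.32 FPKM in siYAP/TAZ and 4.62 FPKM in siTEAD1/2/3/4. All 6 knockdown values lay below both siNC values, whereas siHHEX and siYAP/TAZ did not overlap, with siHHEX 1 only just above siYAP/TAZ 1. The siNC mean was 12.6 ± 0.511 FPKM (SD, n = 2), the siHHEX mean 5.46 ± 1.59 FPKM (SD, n = 3) and the siYAP/TAZ mean 3.41 ± 0.131 FPKM (SD, n = 2). These knockdown means were 43.2% and 27.0% of siNC, with siTEAD1/2/3/4 between them at 36.6%.

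*SEMA7A*, on the minus strand of chromosome 15 from 74409289 to 74433958, encodes a semaphorin anchored to the membrane by a lipid, which signals through integrins and plexin C1. Its canonical transcript has 14 exons and 3376 bases, and its GC content of 60.5% was the highest of the 5. It had 13.1 and 12.2 FPKM in siNC, 4.40, 5.03 and 6.84 FPKM in siHHEX, 4.94 and 3.58 FPKM in siYAP/TAZ and 5.30 FPKM in siTEAD1/2/3/4. The siHHEX and siYAP/TAZ values overlapped, siHHEX 3 was the highest knockdown library, and the lower siNC value was 1.79 times that library. The siNC mean of 12.6 ± 0.608 FPKM (SD, n = 2) compares with 5.42 ± 1.27 FPKM (SD, n = 3) in siHHEX and 4.26 ± 0.962 FPKM (SD, n = 2) in siYAP/TAZ. In percent of siNC, siHHEX had 42.8%, siYAP/TAZ 33.7% and siTEAD1/2/3/4 41.9%.

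*GPRC5A*, on the plus strand of chromosome 12 from 12891559 to 12917937, encodes an orphan receptor of the class C family of G protein-coupled receptors that retinoic acid induces. Its canonical transcript has 4 exons and 6582 bases, of which 5398 are 3′ UTR, with a GC content of 49.0%. It was the most abundant of the 5, at the 95.1th percentile of the tested genes in siNC. *GPRC5A* had 99.5 and 107 FPKM in siNC, 40.6, 42.3 and 69.3 FPKM in siHHEX, 37.7 and 24.0 FPKM in siYAP/TAZ and 31.1 FPKM in siTEAD1/2/3/4. In siHHEX, library 3 stood well above the other siHHEX libraries, and the lower siNC value was 1.44 times that library. No siHHEX value was as low as the higher siYAP/TAZ value. The siNC mean was 103 ± 5.55 FPKM (SD, n = 2), the siHHEX mean 50.7 ± 16.1 FPKM (SD, n = 3), which is 49.0% of siNC, and the siYAP/TAZ mean 30.9 ± 9.71 FPKM (SD, n = 2), which is 29.8%. The siTEAD1/2/3/4 value was 30.0% of siNC.

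**Figure D1:**
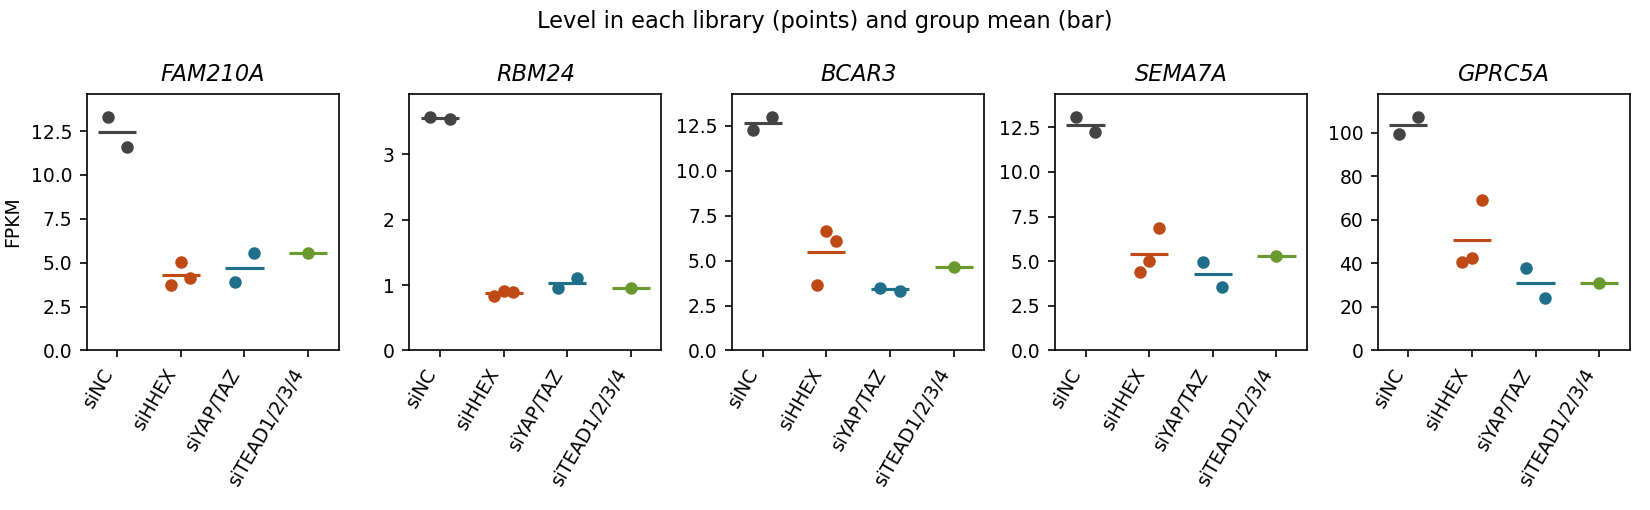
FPKM (y axis, linear from 0, a scale for each gene) of the 5 genes in the 8 libraries, with a point for each library and a bar for the group mean; siTEAD1/2/3/4 has 1 library. Both siNC points lie above all 6 knockdown points in every panel, and the siHHEX points of *GPRC5A* run from 40.6 to 69.3 FPKM.

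That both siNC libraries lay above all 6 knockdown libraries held for all 5 genes, as the choice of the genes led to, and for 10.3% of the tested genes. In siNC, *RBM24* was lowest and *GPRC5A* highest, while *FAM210A*, *BCAR3* and *SEMA7A* had means of 12.4, 12.6 and 12.6 FPKM that differed by less than the spread between the siNC libraries. In siYAP/TAZ the order of the means was *RBM24*, *BCAR3*, *SEMA7A*, *FAM210A* and *GPRC5A*, in which the values of *SEMA7A* overlapped those of *FAM210A* and its lower value, 3.58 FPKM, was just above the higher one of *BCAR3*, 3.50 FPKM. In siHHEX *FAM210A* had the lowest mean after *RBM24*, and its values overlapped those of *SEMA7A* and *BCAR3*.

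On the log2(FPKM + 1) scale, the changes from siNC in siHHEX, siYAP/TAZ and siTEAD1/2/3/4 were -1.35, -1.24 and -1.04 for *FAM210A* and -1.28, -1.17 and -1.22 for *RBM24*. They were -1.11, -1.63 and -1.28 for *BCAR3*, -1.11, -1.39 and -1.11 for *SEMA7A* and -1.06, -1.75 and -1.70 for *GPRC5A*. The scale understates the change of a low gene, and with 0.1 FPKM added in place of 1 the changes of *RBM24* were -1.90, -1.70 and -1.80. By library, *RBM24* lay between -1.31 and -1.12, while *GPRC5A* ran from -0.57 in siHHEX 3 to -2.06 in siYAP/TAZ 2. In siHHEX 3, *GPRC5A*, *SEMA7A* at -0.80 and *BCAR3* at -0.95 did not reach -1 on this scale, and *BCAR3* did not in siHHEX 2, at -0.83. All other member values in the knockdown libraries were beyond -1.

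**Figure D2:**
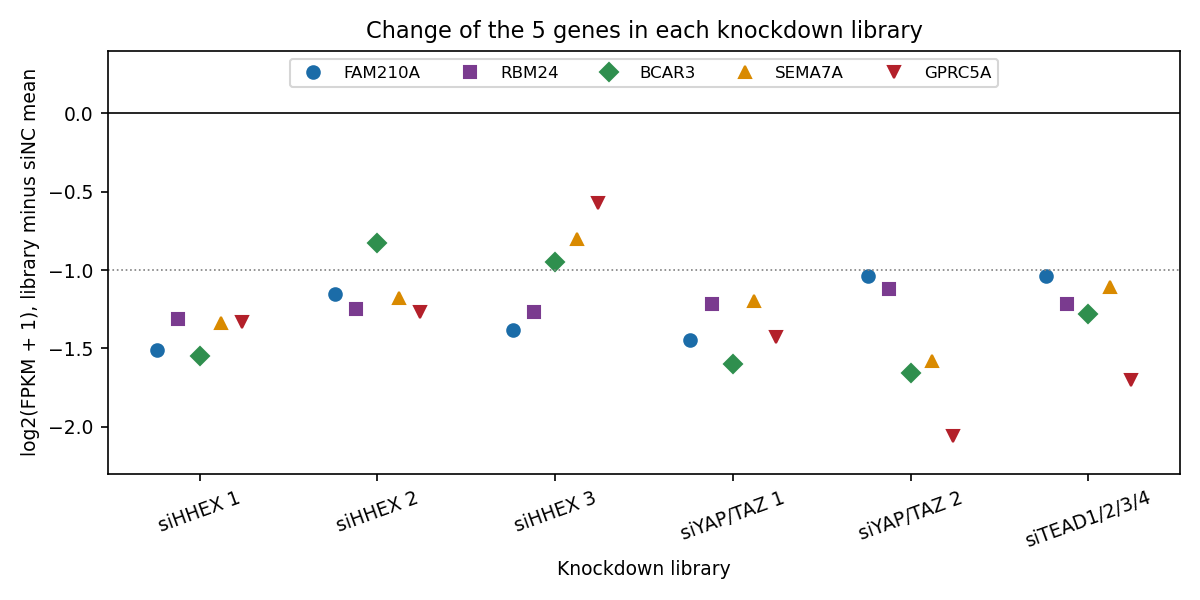
Change of each gene from the siNC mean, on the log2(FPKM + 1) scale (y axis), in each of the 6 knockdown libraries (x axis), with a symbol for each gene and a dotted line at -1. *RBM24* stays between -1.31 and -1.12, and *GPRC5A* goes from -0.57 in siHHEX 3 to -2.06 in siYAP/TAZ 2.

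Of the tested genes, 16.9% were lower and 16.0% higher in siHHEX with an adjusted p under 0.05 from limma, 2.13% were lower and 6.15% higher in siYAP/TAZ, and 0.478% were lower and 0.412% higher by more than 2-fold in the siTEAD1/2/3/4 library. The siHHEX calls were 1712 higher and 1806 lower, and 2210 and 1440 when each library was scaled to the same median. In siYAP/TAZ the calls were 657 higher and 227 lower, or 333 and 345 with that scaling. The study's criterion, a fall of more than 2-fold with an unadjusted p under 0.05, applied here to log2(FPKM + 1), which shrinks the change of low genes, and with limma in place of the study's test on counts, was met in siHHEX, siYAP/TAZ and the single siTEAD1/2/3/4 library, whose spread was borrowed from the replicated groups, by 14 genes. The 5 genes are among them because that was how they were chosen, so this is no test of them. The weakest of the 3 changes was -1.17 for *RBM24*, -1.11 for *BCAR3* and *SEMA7A*, -1.06 for *GPRC5A* and -1.04 for *FAM210A*. Just inside this limit stood *UGCG* at -1.03 and *AMOTL2* and *KRTAP2-3* at -1.02, and just outside it *CTGF* and *SMN1* at -0.92 and *DKK1* at -0.91.

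The comparison of siHHEX with siYAP/TAZ asks whether the genes were lowered to the same level. It is not independent of the choice of the genes, which required low values in both groups and so limits how far these can differ, and its p values are read with that limit. *GPRC5A* was higher in siHHEX than in siYAP/TAZ, by 0.69 on the log2(FPKM + 1) scale (standard error 0.245, 95% interval 0.14 to 1.24, adjusted p = 0.0494 from limma). This call sits at the threshold: it was lost in 11 of the 14 alternatives, with an adjusted p of 0.103 without siHHEX 3, where the difference was 0.45, and of 0.351 without siYAP/TAZ 2, where it was 0.37. The call was also lost where the difference was larger, at 0.83 without siHHEX 1 (adjusted p = 0.0519), and with a library left out the difference ran from 0.374 to 1.01. *BCAR3* was higher in siHHEX by 0.52 (standard error 0.199, 95% interval 0.07 to 0.97, adjusted p = 0.0633 from limma), so it did not pass. It passed without siHHEX 1 (difference 0.74, adjusted p = 0.0155) and with libraries scaled to the same median (difference 0.695, adjusted p = 0.0208). In *GPRC5A* and *BCAR3* each siHHEX library was above each siYAP/TAZ library. How many of all tested genes separated in this way was not counted, so nothing is read from it. For *SEMA7A* the difference was 0.28 (95% interval -0.13 to 0.69, adjusted p = 0.231). *RBM24*, which is among the tested genes through the siNC libraries that do not enter this comparison, differed by -0.11 (95% interval -0.37 to 0.15, adjusted p = 0.464) and *FAM210A* by -0.10 (95% interval -0.48 to 0.27, adjusted p = 0.632). Of all tested genes 39.3% were called in either direction, and as the 5 genes were chosen for low values in both groups, nothing is read from 1 of them being called. The median difference over all tested genes was -0.13, and 0.05 when each library was scaled to the same median, where *FAM210A* and *RBM24* differed by 0.07 each and so changed direction. With that scaling the calls over all genes went from 1437 higher and 2763 lower to 2508 higher and 1385 lower. Against siYAP/TAZ, the siTEAD1/2/3/4 library stood at 0.35 for *BCAR3*, 0.27 for *SEMA7A*, 0.21 for *FAM210A*, 0.04 for *GPRC5A* and -0.06 for *RBM24*, with no test.

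**Figure D3:**
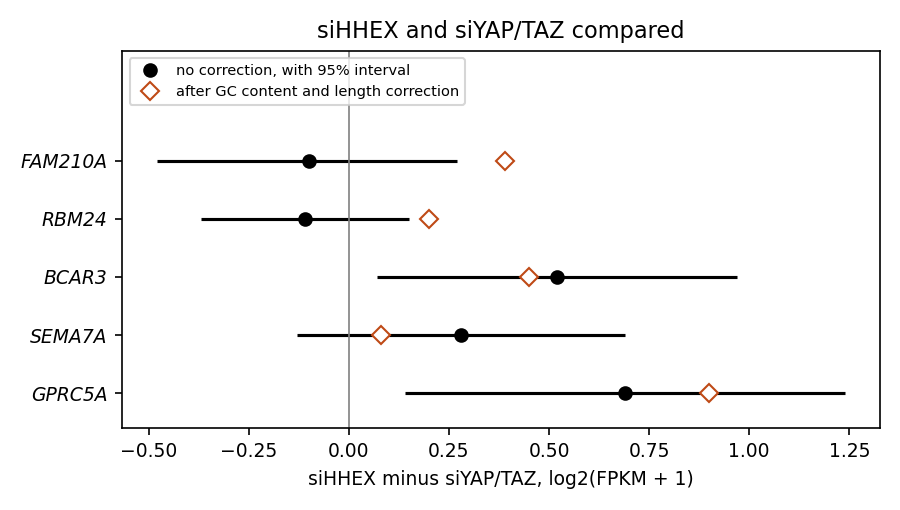
Difference of siHHEX (3 libraries) from siYAP/TAZ (2 libraries) for each gene on the log2(FPKM + 1) scale (x axis), as points with 95% intervals from limma, and as diamonds after the GC content and length correction. The intervals of *GPRC5A* and *BCAR3* lie above 0, and the points of *FAM210A* and *RBM24* are at -0.10 and -0.11 and move above 0 with the correction.

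The siHHEX libraries stood apart in how changes followed GC content. A trend on GC content and length held 47.2%, 34.3% and 57.3% of the variance among genes of the change from siNC in siHHEX 1, 2 and 3, against 2.33% and 0.554% in siYAP/TAZ and 9.14% in siTEAD1/2/3/4. Over the 1733 tested genes within 2 percentage points of the GC content of *FAM210A*, the median siHHEX change was -0.39, and over the 1224 genes near *SEMA7A* it was 0.34. The medians were -0.24 near *RBM24*, 0.20 near *BCAR3* and -0.03 near *GPRC5A*. All 5 genes were below these medians, as the choice of genes lowered in siHHEX led to, so nothing is read from this. With the trend removed from each library, the siHHEX changes were -0.95 for *FAM210A*, -1.04 for *RBM24*, -1.25 for *BCAR3*, -1.40 for *SEMA7A* and -0.97 for *GPRC5A*. The change thus became smaller for the transcripts of low GC content, *FAM210A* and *RBM24* and larger for *BCAR3* and *SEMA7A*, so that *SEMA7A* had the most negative siHHEX change and *FAM210A* the least. In siYAP/TAZ the corrected changes were -1.33, -1.24, -1.70, -1.48 and -1.87 for *FAM210A*, *RBM24*, *BCAR3*, *SEMA7A* and *GPRC5A*. Corrected, the difference between siHHEX and siYAP/TAZ was 0.90 for *GPRC5A* (adjusted p = 0.0562 from limma) and 0.39 for *FAM210A* (adjusted p = 0.102), which had been at -0.10. After the correction 3.2% of the genes were lower and 3.58% higher in siHHEX, and what produced the trend was not tested.

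**Figure D4:**
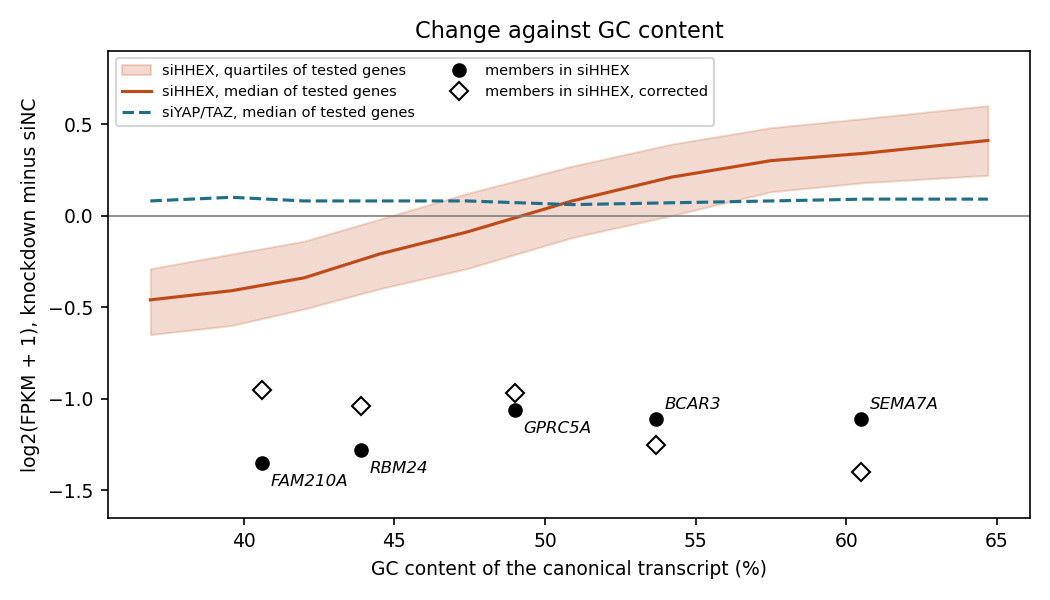
Change from siNC on the log2(FPKM + 1) scale (y axis) against the GC content of the canonical transcript (x axis): lines are medians of the tested genes in 10 bins of GC content, the band is the interquartile range in siHHEX, and points and diamonds are the 5 genes in siHHEX before and after correction. The siHHEX median rises from -0.46 to 0.41 over the bins while that of siYAP/TAZ stays between 0.06 and 0.10. All 5 genes lie below the band, as the choice of genes lowered in siHHEX led to.

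Because TEAD factors bind a GGAATG core, AP-1 factors TGANTCA and homeodomain factors TAATTA, RefSeq promoter windows of GRCh38.p14 (250 bases before to 50 after a start) were searched for these letters on both strands. Windows were at hand for *FAM210A* (1), *RBM24* (1), *BCAR3* (10) and *SEMA7A* (2). Over 34796 windows of this length, GGAATG was present in 14%, TGANTCA in 7.73% and TAATTA in 4.86%. The windows of *FAM210A* and *SEMA7A* held none of the 3, and no window of the 4 genes held TAATTA. That of *RBM24* held 1 GGAATG, 7 bases after a RefSeq start that lies 703 bases from the GENCODE one. *BCAR3* held none at its canonical start, and matches at others of its 10 starts, 2 of GGAATG in the window of the start at 93585162 and 1 in that at 93848151, and 2 of TGANTCA in that at 93845910 and 1 in that at 93775386. No match overlapped another. The stretches below, written along the gene's strand, show the match of *RBM24* and those of *BCAR3* nearest to a start, with the matching letters of either strand in capitals. They are letter matches in the reference, not measured binding.
RBM24, GGAATG on the opposite strand, chr6:17282059-17282088: cctgaacaattgCATTCCcgggctggatgc
BCAR3, GGAATG on the opposite strand, chr1:93585146-93585175: acaggcaggttgCATTCCacaccctgccgt
BCAR3, TGANTCA, chr1:93845913-93845942: acaccagacttcTGAGTCAgagataaaaga
BCAR3, TGANTCA, chr1:93775425-93775454: cgcatcacactgTGACTCAccagccgcgcg

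Each knockdown library carried its own siRNAs, so the 3′ UTRs of the 5 genes were searched for the 7-base words that pair with bases 2 to 8 of the guide strands. In the study's supplementary list, 1 base of each *HHEX* siRNA and 2 bases of *WWTR1* siRNA 2 differ from the target transcript. The sequences of these siRNAs in the study's methods match the target site, from which the words were read. Words read from the supplementary list, a choice made after seeing the data, were other words for *HHEX* siRNA 1 and 2 and *WWTR1* siRNA 2. They gave the same counts in the 5 genes. *FAM210A* and *SEMA7A* held no word of any siRNA. *RBM24* held 1 word of *HHEX* siRNA 3 and 2 of *WWTR1* siRNA 1. *BCAR3* held 1 of the siRNA shared by *TEAD1*, *TEAD3* and *TEAD4*, and *GPRC5A* held 1 of *HHEX* siRNA 3 and 2 of *YAP1* siRNA 2. *HHEX* siRNA 3 is listed with 21 bases, and if its guide is read from the last of them *GPRC5A* again held 1 word and *RBM24* none. None of the 5 held the word of the control siRNA. *GPRC5A* had its lowest value, 24.0 FPKM, in siYAP/TAZ 2 and its highest knockdown value, 69.3 FPKM, in siHHEX 3. That these libraries carried *YAP1* siRNA 2 and *HHEX* siRNA 3 is read from the numbers in their labels, which name no siRNA. The words were common, present in 10% to 13.9% of the 10225 3′ UTRs searched, and their part in the changes was not tested. They are shown in capitals within the target site of each siRNA.
HHEX siRNA 3, target site in HHEX: cccacuuaaugGAAAGGCa
WWTR1 siRNA 1, target site in WWTR1: acguugacuuaGGAACUUu
YAP1 siRNA 2, target site in YAP1: cuggucagagaUACUUCUu
siRNA shared by TEAD1, TEAD3 and TEAD4, target site in TEAD1: ugaucaacuucAUCCACAa

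Genes related to the 5 by family or pathway were set beside the tested genes as a whole. Of 98 genes in 8 lists, 66 were tested, and 8 were lower, 8 higher and 50 without a call in siHHEX, and 2 lower, 7 higher and 57 without a call in siYAP/TAZ. In percent of the 66, siHHEX had 12.1% lower and 12.1% higher, against 16.9% and 16.0% of all tested genes, and siYAP/TAZ 3.03% lower and 10.6% higher, against 2.13% and 6.15%, so that nothing is read from these counts about the lists. In siTEAD1/2/3/4, *ALDH1A3* was lower by more than 2-fold, at -1.02. With the GC content and length correction, 2 were lower and 4 higher of 65 in siHHEX. The adjusted p values below are from limma over all tested genes. Without either one of the siNC libraries, none of the 24 calls named below held, and 9 of them held with the GC content and length correction. None changed direction in any alternative.

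For mitochondria, the paralog *FAM210B* went the other way from *FAM210A*. It had 2.83 and 2.55 FPKM in siNC, 4.80, 5.45 and 3.80 FPKM in siHHEX, 5.85 and 10.5 FPKM in siYAP/TAZ and 4.31 FPKM in siTEAD1/2/3/4, so that all 6 knockdown values lay above both siNC values. It rose in siYAP/TAZ by 1.27 (adjusted p = 0.0182), or 0.90 without siYAP/TAZ 2 (adjusted p = 0.0978), and its siHHEX change of 0.61 did not pass (adjusted p = 0.0528), but with the GC content and length correction it was 0.79 and passed (adjusted p = 0.0468). The rise was larger in siYAP/TAZ than in siHHEX (difference -0.65, adjusted p = 0.0394). Of the 13 tested genes of this list, 1 was lower and 3 were higher in siHHEX, and 1 was higher in siYAP/TAZ. In siHHEX, *EARS2*, the mitochondrial glutamyl-tRNA synthetase, rose by 0.66 (adjusted p = 0.00926), *TUFM*, the mitochondrial elongation factor Tu, by 0.55 (adjusted p = 0.00701) and *ATAD3A*, a membrane ATPase of mitochondria, by 0.48 (adjusted p = 0.0172). *GFM1*, the mitochondrial elongation factor G, fell by 0.62 (adjusted p = 0.0369). The calls of *TUFM*, *ATAD3A* and *GFM1* were lost after the GC content and length correction.

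For RNA-binding proteins, *RBM38*, the paralog of *RBM24*, had 27.5 and 26.0 FPKM in siNC, 26.8, 31.3 and 26.9 FPKM in siHHEX, 22.5 and 19.8 FPKM in siYAP/TAZ and 27.4 FPKM in siTEAD1/2/3/4, and did not pass against siNC in siHHEX or siYAP/TAZ. It was the more abundant of the paralogs in every library. Of 10 tested regulators of splicing and mRNA stability, 3 fell in siHHEX, *MBNL2* by 0.86 (adjusted p = 0.0101), *MBNL1* by 0.78 (adjusted p = 0.00929) and *QKI* by 0.57 (adjusted p = 0.0117), and none of these calls held after the GC content and length correction. In siYAP/TAZ, *ESRP1*, an epithelial splicing factor, rose by 0.55 (adjusted p = 0.0372), a call that was lost with libraries scaled to the same median (adjusted p = 0.0757). Of mRNAs that RBM24 or RBM38 are known to bind, *CDKN1A*, which encodes p21, had a siNC mean of 98.4 ± 0.929 FPKM (SD, n = 2). It did not pass in siHHEX or siYAP/TAZ, and *TP63* and *MYOG* were below the filter.

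In the signalling around *BCAR3*, its paralog *SH2D3A*, another NSP adaptor, was also lower in siYAP/TAZ. It had 15.0 FPKM in both siNC libraries, 9.06, 9.65 and 15.7 FPKM in siHHEX, 6.59 and 5.55 FPKM in siYAP/TAZ and 8.08 FPKM in siTEAD1/2/3/4. The fall in siYAP/TAZ was 1.18 (adjusted p = 0.0199), and *SH2D3A* was higher in siHHEX than in siYAP/TAZ by 0.78 (adjusted p = 0.0179), with siHHEX 3 at the siNC level. Its siHHEX change of -0.40 did not pass (adjusted p = 0.155), but with the GC content and length correction it was -0.78 and passed (adjusted p = 0.0322). *BCAR1*, the gene of the partner p130Cas, had a siNC mean of 4.65 ± 0.167 FPKM (SD, n = 2), against 5.31 ± 1.07 FPKM (SD, n = 3) in siHHEX and 3.97 ± 0.832 FPKM (SD, n = 2) in siYAP/TAZ, and did not pass in either. *SH2D3C*, *NEDD9*, *EFS* and *CASS4* were below the filter, so that *BCAR1* was the only CAS family gene tested. Of the 10 tested genes, siHHEX lowered *CRK*, an adaptor that binds CAS proteins, by 0.57 (adjusted p = 0.00976) and raised *RAPGEF1*, a Rap exchange factor that binds CRK, by 0.64 (adjusted p = 0.0111). In siYAP/TAZ, *DOCK1*, a Rac exchange factor, rose by 0.60 (adjusted p = 0.0425), a call that was lost with scaling to the same median (adjusted p = 0.0636), and *CRK* and *RAPGEF1* lost theirs with the GC content and length correction.

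Of 13 tested semaphorins besides *SEMA7A*, 10 had no call in siHHEX and 10 had none in siYAP/TAZ, while 1 was lower and 2 were higher in siHHEX, and 3 were higher and none lower in siYAP/TAZ. *SEMA4G*, a transmembrane semaphorin, had 1.16 and 1.21 FPKM in siNC, 2.58, 2.10 and 1.87 FPKM in siHHEX, 2.99 and 3.33 FPKM in siYAP/TAZ and 2.23 FPKM in siTEAD1/2/3/4, above siNC in all 6 knockdown libraries. It rose by 0.93 in siYAP/TAZ (adjusted p = 0.0111) and by 0.53 in siHHEX (adjusted p = 0.0186). *SEMA6B*, also a transmembrane semaphorin, rose by 0.86 in siHHEX (adjusted p = 0.00413) and by 0.52 in siYAP/TAZ (adjusted p = 0.0452), and it was higher in all 6 knockdown libraries, at 18.4 to 26.5 FPKM against 12.4 and 13.1 FPKM in siNC. Of the secreted class, *SEMA3B* rose by 0.68 in siYAP/TAZ (adjusted p = 0.0497) and *SEMA3C* fell by 0.76 in siHHEX (adjusted p = 0.0305). The siYAP/TAZ calls of *SEMA6B* and *SEMA3B* were lost with scaling to the same median, and the siHHEX calls of *SEMA4G* and *SEMA3C* with the GC content and length correction. Of the receptors of SEMA7A, *PLXNC1* had 0.00747 FPKM and *ITGA1* 0.201 FPKM as siNC means, both below the filter. *ITGB1*, the integrin β1 subunit, had 96.2 and 90.5 FPKM in siNC, 61.2, 56.0 and 52.9 FPKM in siHHEX, 98.9 and 65.4 FPKM in siYAP/TAZ and 55.0 FPKM in siTEAD1/2/3/4. It fell in siHHEX by 0.71 (adjusted p = 0.0145), and by 0.29 without passing after the correction (adjusted p = 0.351), and of the 6 tested receptors it was the only one called.

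In the GPRC5 family, *GPRC5C* moved against *GPRC5A*. It had 2.79 and 3.55 FPKM in siNC, 3.51, 4.91 and 6.0 FPKM in siHHEX, 7.41 and 7.17 FPKM in siYAP/TAZ and 6.81 FPKM in siTEAD1/2/3/4. It rose in siYAP/TAZ by 1.0 (adjusted p = 0.0228), and in siHHEX, which overlapped siNC, its change of 0.46 did not pass (adjusted p = 0.0802). *GPRC5B* had a siNC mean of 3.80 ± 0.351 FPKM (SD, n = 2) and did not pass in siHHEX or siYAP/TAZ, and *GPRC5D* was listed at 0 in all 8 libraries. Of 10 tested genes of the retinoic acid pathway, 1 was lower and 2 were higher in siHHEX. *RXRB* and *RARG*, both nuclear receptors of the pathway, rose in siHHEX by 0.88 (adjusted p = 0.00771) and 0.56 (adjusted p = 0.0383), and *ALDH1A3*, which makes retinoic acid, fell there by 0.70 (adjusted p = 0.0246). The calls of *RARG* and *ALDH1A3* were lost with the GC content and length correction, where the changes were 0.25 (adjusted p = 0.356) and -0.58 (adjusted p = 0.0904).

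**Figure D5:**
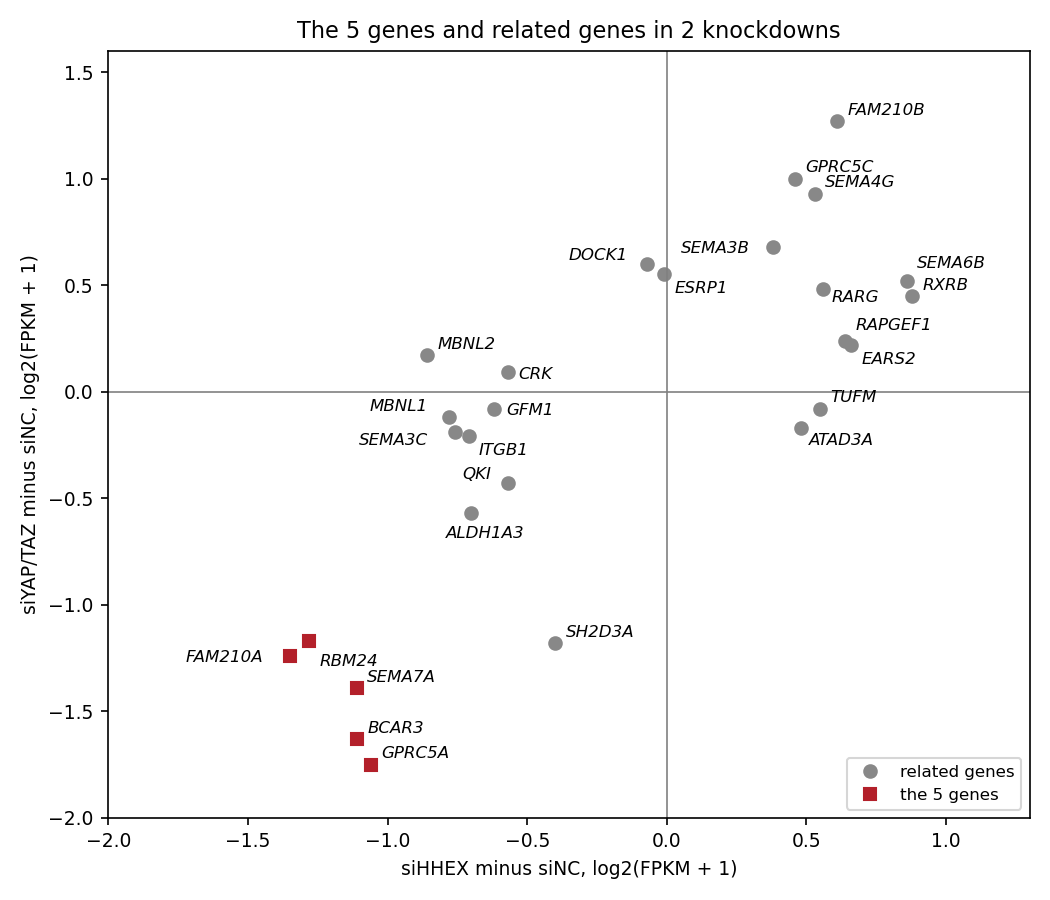
Change from siNC in siYAP/TAZ (y axis) against that in siHHEX (x axis) on the log2(FPKM + 1) scale, for the 5 genes (squares) and the related genes named in the text with a call (circles). Both axes use the same siNC libraries. The 5 genes, chosen for this, stand at the lower left, while *FAM210B*, *GPRC5C* and *SEMA4G* stand at the upper right, with siYAP/TAZ changes of 1.27, 1.0 and 0.93.

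The pattern of each gene over the 8 libraries was set beside that of every other tested gene by Pearson's r of log2(FPKM + 1), as a description: the 8 libraries fall into siNC and knockdowns, so that r mainly says which genes had a like step between them. Among the 5, r ran from 0.699 for *FAM210A* with *GPRC5A* to 0.968 for *FAM210A* with *RBM24*. *BCAR3* and *GPRC5A* each had 0.948 with *SEMA7A*. The 3 genes most like *FAM210A* were *DDX47* (0.988), *THBS1* (0.978) and *KPNA2* (0.972). *THBS1*, which encodes the matricellular protein thrombospondin, was also among the 3 most like *RBM24* (0.972), with *RRP15* (0.980) and *PDSS1* (0.970). For *BCAR3* they were *KRT81* (0.986), *HK2*, which encodes hexokinase 2 (0.967), and *ELOC* (0.963). For *SEMA7A* they were *RRS1* (0.979), *CTNNAL1* (0.973) and *CAV2*, which encodes caveolin 2 (0.966), and *GPRC5A* was most like *DUSP14* (0.977) and *CLCF1* (0.973). Likeness in pattern did not mean likeness in size: *DDX47* had a siHHEX change of -0.69 and *RRP15* of -0.46, while *CAV2* had -1.23.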

How the data were processed

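The submitters' processing notes name Trimmomatic 0.36, HISAT2 2.0.5, Cufflinks 2.2.1 and HTSeq 0.9.1; the genome build and annotation are not given in the sources used here. The authors extracted total RNA with Trizol and deposited FPKM, 1 value for each gene in each library, without replicates pooled and with no stated scaling between libraries. Each library had 20030 rows, and the steps between low values gave an estimated depth of 26400000 to 30900000 fragments per library, a rough figure that also limits how firmly the lowest gene, *RBM24*, can be read. The 5 genes and the related lists were chosen with earlier results of these data known.

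Genes that reached 1 FPKM in 2 or more libraries (10677) were tested on log2(FPKM + 1) with limma 3.58.1 (R 4.3.3), with 4 groups and 1 spread for all 8 libraries, and two-sided p values were adjusted by Benjamini-Hochberg over all of them, with a call at 0.05. The study used DESeq on counts, which does not suit FPKM. Changes of the 5 genes from siNC were described, and siHHEX was tested against siYAP/TAZ. In a simulation that changed 200 of the genes by 1 log2 unit, 98.5% were recovered in siHHEX against siNC. The figures were 92.5% in siYAP/TAZ against siNC and 99.5% in siHHEX against siYAP/TAZ, with 12, 6 and 16 false calls in that order. Whether these figures hold for the libraries themselves, where siHHEX changes followed GC content, was not tested.

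Named related genes are those called in siHHEX or siYAP/TAZ with the largest changes, up to 4 a list, each paralog, receptor or partner introduced by its role, and every gene of a list of 4 or fewer; likeness names the 3 genes with the highest r. Some genes that these rules would name are not reported here. Coordinates, transcripts and 3′ UTRs came from GENCODE v44 on GRCh38, and promoter windows from RefSeq on GRCh38.p14. For 10349 of the tested genes (96.9%), trends on GC content and on log length (natural splines, 4 degrees of freedom each) were removed from each library as an alternative. The other alternatives were median scaling, a block for the replicate number, 0.1 FPKM as pseudocount, the fit without other groups, the fit without the filter, the study's criterion of 2-fold with an unadjusted p under 0.05, and leaving out each library. Other steps used Python 3.11.15 with pandas 2.3.3, numpy 2.4.6 and scipy 1.17.1, and matplotlib 3.10.9.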

Additional observations from a re-analysis of the deposited data

How the results depend on the processing

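Changes of the 5 genes from siNC kept their direction in every alternative run. As the genes were chosen for lower values in all knockdowns, nothing is read from this. Against siYAP/TAZ, the siHHEX differences of *FAM210A* and *RBM24* turned positive with median scaling (0.0728 and 0.0672), the GC content and length correction (0.388 and 0.198) and that correction with the replicate block (0.345 and 0.159), where *SEMA7A* was at -0.0234. Leaving out 1 library gave *FAM210A* differences from -0.309 to 0.102. The call of *GPRC5A* was lost in 11 of 14 alternatives, and that of *BCAR3* was gained in 2. The 4200 calls of siHHEX against siYAP/TAZ became 919 with the GC content and length correction, 201 with it and the block, 162 by the study's criterion, and between 1026 (without siYAP/TAZ 2) and 5161 (without siHHEX 2) with a library left out. The 3518 calls of siHHEX against siNC became 1907 without the filter, 2062 with the replicate block, 702 with the correction, 151 with both, 174 by the study's criterion, 2109 without siHHEX 1, 19 without siNC 1 and 27 without siNC 2, and at most 4839 with a library left out. The 884 calls of siYAP/TAZ against siNC became 320 without the filter, 1759 with only the groups compared, 1031 with the replicate block, 168 by the study's criterion, 92 without siYAP/TAZ 2, 22 without siNC 1 and 15 without siNC 2, and at most 1317 with a library left out. Of the 24 calls of named related genes, none held without either siNC library, and 12 were lost without the filter, 6 with the replicate block, 4 with median scaling and 1 with another pseudocount or without other groups. Leaving out siHHEX 1, 2 or 3 lost 5, 1 and 2 of them, and leaving out siYAP/TAZ 1 or 2 lost 5 and 8. The labels give only numbers, read here as those of the siRNAs in the study's methods, and in siNC as those of libraries. These numbers did not pair the libraries, whose deviations from the group means had correlations between -0.0705 and 0.0215. The block left out siTEAD1/2/3/4. As only siHHEX 3 had the number 3, the block also gave that library no weight. The *GPRC5A* difference between siHHEX and siYAP/TAZ was 0.448 both with the block and without siHHEX 3. Apart from fewer libraries or genes, the cause of these shifts was not tested. With a library left out of siNC or siYAP/TAZ, the other is assumed to vary like the other groups.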
